A study of Sus scrofa with 6 samples.

Results

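The genes described here are 10 genes of the neuronal cytoskeleton, growth cone, RNA-binding and vesicle release machinery, out of 30477 genes in the deposited tables: STMN2, DCX, TUBB3, ELAVL3, ELAVL4, MAPT, SNAP25, SYT1, GAP43 and INA. They were chosen by symbol as common markers of neurons. The files carry the symbol of 9 of them, and TUBB3 was found through the reference gene names. They were followed in porcine midbrain-like organoids (pMLOs) grown from IVF_1_ pESC_FIW, a line of pig embryonic stem cells made from in vitro fertilized embryos. All organoids were patterned toward ventral midbrain with SB431542, Noggin, SHH-C24II and CHIR99021, followed by FGF8, and then by FGF8 with BDNF and ascorbic acid. Organoids of day 11 (D11) were collected before embedding in Matrigel, and those of days 28 and 45 (D28, D45) after it, the later medium being B27 with BDNF, GDNF, ascorbic acid, db-cAMP and DAPT. Each day had 2 libraries, replicates A and B, so each value below has n = 2 libraries per day. All 6 libraries come from a single line and are described by the study as biological duplicates at each day. The labels do not say whether A and B were separate cultures or batches, so p-values measure the spread between these libraries.

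A young neuron builds an axon by assembling microtubules and guiding a growth cone, and only later fills its terminals with the proteins that release transmitter. STMN2 (stathmin-2) regulates microtubules in growth cones, DCX (doublecortin) stabilises microtubules in migrating neurons, TUBB3 is the neuronal beta-tubulin, MAPT encodes tau, INA encodes alpha-internexin, a neurofilament subunit, and GAP43 is a growth cone membrane protein. ELAVL3 and ELAVL4 are neuronal RNA-binding proteins that stabilise mRNAs. SNAP25 is a SNARE protein of the vesicle fusion complex, and SYT1 (synaptotagmin-1) is the calcium sensor that triggers fusion. In the midbrain, dopaminergic neurons carry long and highly branched axons, which rest on these proteins. STMN2, DCX and GAP43 are treated below as early genes, and SNAP25, SYT1 and MAPT as late genes.

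In the RefSeq annotation of Sscrofa11.1 the genes lie on separate chromosomes: ELAVL3 at chr2:70114475-70134348 (minus strand), STMN2 at chr4:56952968-57006744 (minus), SYT1 at chr5:101871313-102394310 (minus), ELAVL4 at chr6:161784146-161928953 (minus, annotated as a lncRNA), MAPT at chr12:17098259-17211483 (minus), GAP43 at chr13:144364314-144458136 (minus), INA at chr14:114227998-114240566 (plus), SNAP25 at chr17:19096115-19227580 (plus) and DCX at chrX:91317671-91644572 (minus). TUBB3 had no locus in that table under its symbol. The 250 bases before the annotated start are shown for INA, which fell most among the members, and for SNAP25 and MAPT, which rose together. They run 5′ to 3′ on the gene's strand, and capitals mark matches to the motifs searched, each searched on both strands. These were the TATA box (TATAAA), the GC box of SP1-like factors (GGGCGG), the CCAAT box with the letters of its name, and an E-box bound by neurogenic helix-loop-helix factors (CAGATG). The search also covered RE1, the site of the neuronal repressor REST, by its left arm (TTCAGCACC) and, as a separate motif, by its right arm (GGACAGC).
INA, chr14:114227748-114227997, plus strand: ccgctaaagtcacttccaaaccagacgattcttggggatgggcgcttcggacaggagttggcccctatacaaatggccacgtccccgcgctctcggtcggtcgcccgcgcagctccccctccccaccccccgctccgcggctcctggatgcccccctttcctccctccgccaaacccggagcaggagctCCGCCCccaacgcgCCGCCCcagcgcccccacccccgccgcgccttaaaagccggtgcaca
SNAP25, chr17:19095865-19096114, plus strand: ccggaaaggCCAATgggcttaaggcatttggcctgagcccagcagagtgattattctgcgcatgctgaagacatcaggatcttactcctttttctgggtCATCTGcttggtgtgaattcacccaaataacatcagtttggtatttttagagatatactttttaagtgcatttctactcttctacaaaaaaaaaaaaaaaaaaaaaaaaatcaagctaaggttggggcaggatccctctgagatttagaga
MAPT, chr12:17211484-17211733, minus strand: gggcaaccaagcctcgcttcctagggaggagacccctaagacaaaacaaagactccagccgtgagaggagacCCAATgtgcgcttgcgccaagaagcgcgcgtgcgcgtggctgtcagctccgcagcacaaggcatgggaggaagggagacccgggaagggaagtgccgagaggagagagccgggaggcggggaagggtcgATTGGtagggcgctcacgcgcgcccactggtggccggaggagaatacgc
The INA window was 70% G and C and held the GC box on the other strand at positions -61 and -47, counted back from -1 as the base before the start. The SNAP25 window was 39.2% G and C, lower than in the other 8 members with a window, and held CCAAT at -241 and, on the other strand, the E-box at -151. The MAPT window was 64.8% G and C and held the CCAAT letters at -178 and, on the other strand, at -49. The median over 19556 promoter windows was 57.6%. Of all windows, 45.9% held the GC box, 31.9% CCAAT, 12.5% the E-box and 9.77% the TATA box. Neither RE1 arm was found in the windows of the 9 members, against 0.235% and 4.36% of all windows.

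The kept cells numbered 13954 to 21615 per library, 103519 in all, and each library held 106851387 to 180098372 unique molecular identifiers (UMIs), a UMI being a tag that marks a captured mRNA molecule. Levels are in CPM, a gene's UMIs scaled to 1000000 UMIs of the cells summed. UMIs per cell had a median of 10741 and 8821 on D11 (A before B, here and throughout), 5499.5 and 8095 on D28, then 2240 and 4242 on D45, so shares of cells with a UMI are also given after each cell was thinned to 2000 UMIs, for which 9233 to 14671 cells per library were deep enough. The D28 libraries differed most from each other (a chi-square per gene of 473 between A and B, against 59.2 on D11 and 114 on D45). Pairs of libraries shared 55 to 119 cell barcodes. The labels call the cells midbrain dopaminergic neurons. Cells with UMIs of at least 3 of TH, DDC, SLC18A2, SLC6A3, NR4A2 and RET, the dopaminergic gate, numbered 209 and 236 on D11, 866 and 731 on D28, then 209 and 643 on D45, so most cells did not pass this gate at this depth. Thinned to 2000 UMIs, the gate held 3 and 6, 118 and 107, and 18 and 109 cells. A second gate for neurons of any kind, called the neuron gate, used none of the 10 genes but asked for UMIs of at least 3 genes of a list of neuronal genes that included NSG1, NSG2, RTN1, CELF4, SYP, STMN4, CELF5 and MYT1L. It held 11.9% and 9.85% of cells on D11, 45.2% and 49.6% on D28, then 43.9% and 43.5% on D45. In thinned cells the shares were 5.74% and 6.54%, 42.3% and 35.7%, and 35.8% and 33.1%.

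In whole organoids, the vesicle release genes and tau rose several-fold between D11 and D45, the neurofilament gene INA fell, and the early genes STMN2 and GAP43 were highest on D28. For each library the UMIs of all kept cells were summed, and the quasi-likelihood test of edgeR was run on 22197 genes with Benjamini-Hochberg adjustment of p. Between D11 and D28, 4 of the 10 genes rose and 1 fell, against 12.5% and 10.6% of all genes tested. Between D11 and D45 it was again 4 and 1, against 17.3% and 17.4% of all genes. Between D28 and D45 none of the 10 passed, where 4.51% of genes rose and 4.95% fell. By edgeR, 4 of the 10 had an unadjusted p under 0.05 in that last comparison (TUBB3, ELAVL4, GAP43 and INA), as did 6958 of the 22197 genes. DESeq2 called GAP43 there, and 19.6% of all genes. Of the fits that left out a library, those without a D28 library called the most genes in each comparison, here and in the sets of cells below. Calls that members gained in them are therefore not read as particular to the members. In sums over whole organoids, fewer cells of a type and less RNA per cell cannot be told apart.

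Among the vesicle release genes, SNAP25 was at 44.4 and 41.9 CPM on D11, 215 and 159 on D28, then 246 and 228 on D45. Every later library was above both D11 libraries, and the D45 libraries were above those of D28. The log2 fold change was 1.88 ± 0.25 (SE) for D28 against D11 (adjusted p = 0.00348) and 2.04 ± 0.25 for D45 against D11 (adjusted p = 0.0015). SYT1 was at 22.6 and 24.2 CPM on D11, 57.6 and 119 on D28, then 102 and 87.0 on D45, with the D28 libraries on either side of those of D45. It rose by 1.61 ± 0.27 to D28 (adjusted p = 0.00766) and 1.60 ± 0.27 to D45 (adjusted p = 0.00488), both on the log2 scale (edgeR quasi-likelihood test, Benjamini-Hochberg adjusted). The SYT1 call for D28 was lost without either D11 library (adjusted p = 0.0709 without A and 0.0528 without B).

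Among the cytoskeleton genes, MAPT was at 51.5 and 62.4 CPM on D11, 303 and 234 on D28, then 295 and 277 on D45. The later days overlapped each other and stood well above D11. Its log2 fold change was 1.99 ± 0.26 to D28 (adjusted p = 0.00314) and 1.91 ± 0.26 to D45 (adjusted p = 0.00208), and the D28 call was just missed without D11 replicate A (adjusted p = 0.050042). INA went the other way, with 217 and 263 CPM on D11, 129.8 and 170.2 on D28, then 122 and 115 on D45. Each day lay below the one before, with no overlap. INA changed by -0.95 ± 0.19 to D28 (adjusted p = 0.0143) and by -1.43 ± 0.19 to D45 (adjusted p = 0.00207, edgeR quasi-likelihood test, Benjamini-Hochberg adjusted). The D28 call was lost without either D11 library, with library totals as the only scaling and in thinned cells, whereas the D45 call was kept in 13 of 13 alternatives. In thinned cells INA was at 167 and 212 CPM on D11 and at 157 and 207 on D28, so these days overlapped. TUBB3 was at 354 and 390.0 CPM on D11, 722 and 319 on D28, then 260.3 and 309 on D45, with the D28 libraries on either side of D11. With all libraries it did not pass (log2 fold change -0.79 ± 0.43 to D45, adjusted p = 0.195, edgeR quasi-likelihood test). It passed only in fits without a D28 library. Without single libraries its change ran from -0.97 to -0.63 to D45 and from -0.60 to 0.81 to D28. Other tubulin genes are close in sequence to TUBB3, and whether reads were split between them was not tested. DCX was at 54.9 and 42.4, 55.1 and 152, and 151 and 128 CPM, and its change of 1.11 ± 0.37 to D45 missed the threshold (adjusted p = 0.0559) but passed with DESeq2 (0.0137), library totals (0.0339), thinned cells (0.0222) and without D28 replicate A (0.000201) or B (0.000266). Its change to D28 (0.78 ± 0.37, adjusted p = 0.171) passed in thinned cells (0.0385) and without D28 replicate A (0.000728).

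The growth cone genes GAP43 and STMN2 had their highest levels on D28. GAP43 was at 327 and 345 CPM on D11, 860.1 and 657 on D28, then 364 and 437 on D45. Both D28 libraries were above all others, and in CPM D45 was little above D11, while the log2 change to D45 scaled by TMM was -0.15 (adjusted p = 0.697). The rise to D28 had a log2 fold change of 0.93 ± 0.27 (adjusted p = 0.0491), and the change from D28 to D45 was -1.09 ± 0.27 (adjusted p = 0.0534, edgeR quasi-likelihood test, Benjamini-Hochberg adjusted). The rise lost its call without either D11 library (adjusted p = 0.298 without A and 0.212 without B) or either D45 library (0.099 and 0.0966), and with DESeq2's size factors or no filter on cells, and the later change gained one without D28 replicate A (0.0393) or B (0.000917), with DESeq2 (0.00343) and with no filter on low counts (0.0465). STMN2 showed the same order, with 558 and 686, 1699 and 1046, and 865 and 907 CPM, and the days did not overlap. With edgeR none of its changes passed (adjusted p = 0.0994 to D28 and 0.844 for D45 against D11), but the rise to D28 did with DESeq2 (0.0362), library totals (0.0275), thinned cells (0.0238) and without D28 replicate B (0.00103). The RNA-binding gene ELAVL3 was at 45.3 and 38 CPM on D11, 63.7 and 101 on D28, then 117 and 86.7 on D45. It rose to D45 by 0.88 ± 0.22 (adjusted p = 0.0201), a call lost without any of the D11 and D45 libraries (adjusted p from 0.0511 to 0.143). Its change to D28 missed the threshold (0.70 ± 0.22, adjusted p = 0.0558) and passed with DESeq2 (0.0236), library totals (0.03997), thinned cells (0.00585) and without D28 replicate A (0.00501). Its relative ELAVL4 was between 104 and 150.1 CPM in the 6 libraries. ELAVL4 changed by -0.52 ± 0.17 to D45 (adjusted p = 0.0544), a fall that passed with DESeq2 (0.0275), with no filter on cells (0.0425) and without D28 replicate A (0.0156) or B (0.00968).

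**Figure D1:**
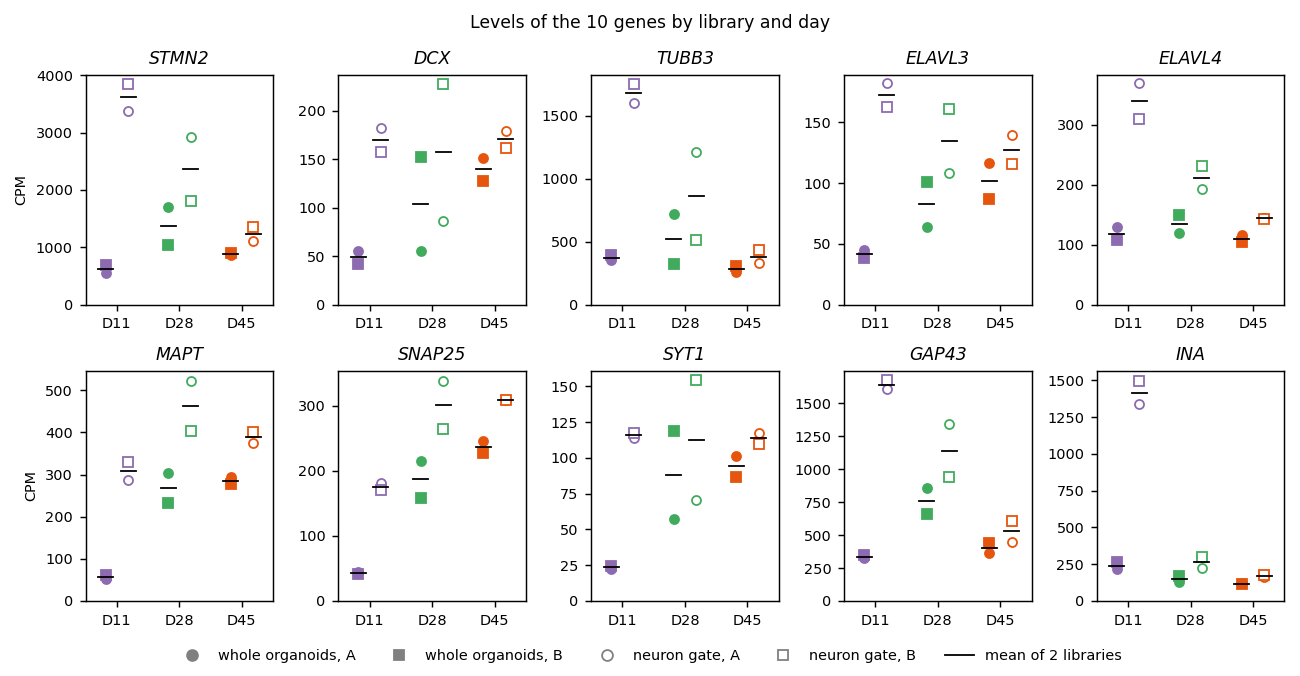
CPM (vertical axis) of each of the 10 genes on D11, D28 and D45, in sums over whole organoids (filled symbols) and over the neuron gate (open symbols), with circles for replicate A, squares for replicate B and a bar at the mean of 2 libraries. SNAP25, MAPT and SYT1 in whole organoids were higher on D28 and D45 than on D11, while STMN2, TUBB3, GAP43 and INA in the neuron gate were highest on D11.

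The neuron gate moved with these values, from 9.85% to 11.9% of cells on D11 to 43.5% to 49.6% on the later days, and its part in the whole-organoid changes was not tested. The scaling also bears on them. With the trimmed mean of M-values (TMM) the median log2 fold change of all genes was 0.03 to D28 and -0.01 to D45, and 54.3% and 49.9% of calls were rises. With library totals alone the medians were 0.30 and 0.40 and the rises 77.2% and 74.6% of calls. SNAP25, MAPT, SYT1 and INA kept their direction under each scaling in both comparisons with D11, while ELAVL4 to D28 and GAP43 to D45 changed sign (0.18 and 0.25 with totals).

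The second view took cells with at least 1 STMN2 UMI (STMN2+ cells), which were 26.8% and 33.4% of cells on D11, 74.8% and 69.5% on D28, then 71.9% and 68.4% on D45, 58874 cells in all. In thinned cells the shares were 14.1% and 17.1%, 60.2% and 53.8%, and 54.8% and 48.3%. This is a wide choice of cells. Of fibroblast-gate cells (at least 3 of COL1A1, COL1A2, COL3A1, LUM and DCN), which should lack STMN2, 60.5% and 47.9% on D28, then 59.9% and 60.7% on D45 also had an STMN2 UMI, at a median of 9956 to 13173 UMIs per cell, against 5499.5 and 8095 and 2240 and 4242 over all cells. The floor plate gate (CORIN, SHH, FOXA1, FOXA2, NTN1, SPON1 and FERD3L) had a share of 18.3% and 26.1% on D11. Thinned to 2000 UMIs, the shares were 11.5% to 18.2% in the fibroblast gate and 81.6% to 98.3% in the neuron gate. A share near that of the fibroblast gate is not read here as expression, and free RNA, mixed droplets and low expression were not tested. Of STMN2+ cells, 54.2% and 51.8% on D11, 30.1% and 32% on D28, then 17.6% and 27.9% on D45 fell in a gate of another cell type. These were the floor plate, mitotic, astrocyte, oligodendrocyte, fibroblast and ciliated gates, each asking for at least 3 of its genes. Cells in more than 1 of them count in these shares but in none of the single gates. Thinned to 2000 UMIs, the shares were 15.7% and 20.2%, 7.61% and 6.56%, and 6.87% and 9.48%. STMN2 was at 96 to 582 CPM in the fibroblast gate and at 1110.4 to 3848 CPM in the neuron gate, and 85.1% to 93.7% of its UMIs came from neuron-gate cells.

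In STMN2+ cells, INA, TUBB3, GAP43 and ELAVL4 fell between D11 and D45 and SNAP25 and MAPT rose. Over 21393 genes tested, these were 2 rises and 4 falls among the 9 members other than STMN2, which chose the cells, against 14.2% and 13.0% of all genes. Between D11 and D28 there were 2 rises (SNAP25 and MAPT) and 1 fall (INA), against 8.57% and 7.46%. ELAVL4 missed that comparison (-0.57 ± 0.20, adjusted p = 0.096) and passed as a fall with DESeq2 (0.0413) and without D28 replicate B (0.0354). Between D28 and D45 none passed, where 3.38% of all genes rose and 2.72% fell. By edgeR, TUBB3, ELAVL4, GAP43 and INA had an unadjusted p under 0.05, as did 6154 of the 21393 genes. DESeq2 called TUBB3 and GAP43, and 15.9% of all genes. DCX, SYT1 and INA passed there only in fits without a D28 library, which gave the most calls over all genes. Without single libraries the log2 changes ran from -0.26 to 0.99 for DCX, -0.35 to 0.52 for SYT1 and -0.62 to -0.37 for INA. Those of TUBB3 and GAP43 ran from -1.62 to -0.25 and from -1.33 to -0.72. Between D11 and D28, TUBB3, SYT1 and DCX likewise passed only in such fits. Their log2 changes without single libraries ran from -1.51 to -0.14, -0.049 to 0.82 and -0.70 to 0.55. With TMM the median of all genes was 0.06 to D28 and 0.05 to D45, with 53.5% and 52.2% of calls rises, and with library totals 0.25 and 0.35, with 73.0% and 72.3%. STMN2 itself was at 1938 and 1903 CPM on D11, 2165 and 1459 on D28, then 1104 and 1213 on D45.

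INA was at 737 and 705 CPM in STMN2+ cells on D11, 162 and 230.3 on D28, then 146 and 146 on D45. The days did not overlap, and most of the difference lay between D11 and D28. Its log2 fold change was -2.08 ± 0.21 to D28 (adjusted p = 0.00171) and -2.60 ± 0.21 to D45 (adjusted p = 0.000482), and both calls were kept in 16 of 16 alternatives. TUBB3 was at 964 and 890.0 CPM on D11, 885 and 409.8 on D28, then 299 and 371 on D45, a log2 fold change of -1.76 ± 0.44 to D45 (adjusted p = 0.0259, edgeR quasi-likelihood test, Benjamini-Hochberg adjusted). GAP43 was at 925 and 827, 1021 and 797, and 413 and 529 CPM, and ELAVL4 at 249 and 181, 144 and 187, and 129.9 and 122 CPM. For both genes the D45 libraries lay below all others, with changes of -1.19 ± 0.30 (adjusted p = 0.0268) and -1.06 ± 0.20 (adjusted p = 0.00915). The calls of TUBB3 and GAP43 were lost without any D11 or D45 library (adjusted p from 0.102 to 0.178 and from 0.0865 to 0.205), and that of ELAVL4 without D11 replicate A or either D45 library (0.0826 to 0.105).

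SNAP25 was at 108 and 88.5 CPM in STMN2+ cells on D11, 257 and 209 on D28, then 285 and 274 on D45. MAPT was at 160.4 and 158, 375 and 313, and 343 and 341 CPM. In both, every later library was above D11. To D45, SNAP25 rose by 1.21 ± 0.24 on the log2 scale (adjusted p = 0.0116) and MAPT by 0.80 ± 0.24 (adjusted p = 0.0437, edgeR quasi-likelihood test, Benjamini-Hochberg adjusted). Both calls were lost without any D11 or D45 library (adjusted p from 0.069 to 0.134 for SNAP25 and 0.1602 to 0.252 for MAPT), and that of MAPT also in thinned cells (0.1003). The D28 changes of 1.09 ± 0.24 for SNAP25 (adjusted p = 0.0254) and 0.95 ± 0.24 for MAPT (adjusted p = 0.0371) were also lost without any of them (0.0687 to 0.271), and that of MAPT also in thinned cells (0.0703). SYT1 was at 64.9 and 57.7, 62.4 and 137, and 110.3 and 98.8 CPM, with a log2 fold change of 0.47 ± 0.27 to D45 (adjusted p = 0.231), which passed without D28 replicate A (0.0144) or B (0.015) and turned to -0.36 in cells with at least 3 STMN2 UMIs, -0.30 in STMN2+ cells in no gate of another cell type and -0.28 in the neuron gate. DCX and ELAVL3 changed by 0.29 ± 0.37 and -0.09 ± 0.23 and did not pass. The rises were not particular to STMN2+ cells. In cells with no STMN2 UMI, SNAP25 was at 18.6 and 15.7 CPM on D11, then 104 and 91.3 on D45. MAPT went there from 7.57 and 8.40 to 120 and 88.6 CPM, and SYT1 from 5.46 and 5.40 to 70.0 and 52.1. These levels were not tested.

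Markers of other cell types moved with the day in the same STMN2+ cells. Among the floor plate genes, FOXA2 is also counted by the study as a gene of midbrain dopaminergic neurons. The summed level of the 7 floor plate genes was 1347 and 1413 CPM on D11, 697 and 1092 on D28, then 210.2 and 303 on D45, and 7 of 7 fell to D45. That of 5 mitotic genes went from 1244 and 1241 to 404 and 416 CPM, and 5 of 5 fell. Oligodendrocyte genes went from 9.07 and 10.3 to 924 and 709 CPM (8 of 8 rose), fibroblast genes from 9.09 and 15.3 to 700 and 2084 (4 of 5 rose), astrocyte genes from 49.3 and 44.2 to 241 and 299 (3 of 5 rose) and ciliated-cell genes from 39.7 and 39.8 to 112 and 80.7 (4 of 5 rose). No marker was at 0 in all 6 libraries. The first choice was therefore set beside 3 other choices of cells. They were cells with at least 3 STMN2 UMIs, STMN2+ cells in no gate of another cell type, and the neuron gate, which did not ask for STMN2. The STMN2+ cells in no gate of another type had a median of 9385 and 1533 UMIs on D11, 3816 and 6520.5 on D28, then 2020 and 2682 on D45. A shallow cell can miss the 3 genes that a gate asks for, so cells of other types may remain among them. In the STMN2+ cells in no such gate, the summed levels were 253 and 280 CPM for floor plate genes on D11, and on D45 80.1 and 71.4 CPM for oligodendrocyte genes and 143 and 318 CPM for fibroblast genes, which were at 2.46 and 3.81 on D11. In cells with 3 or more STMN2 UMIs, floor plate genes were at 459 and 512 CPM on D11, and on D45 oligodendrocyte genes were at 539.7 and 445 and fibroblast genes at 330.2 and 1016. The neuron gate still held 184 to 883 CPM of floor plate genes and, on D45, 1000 and 699 CPM of oligodendrocyte genes and 401 and 1139.7 CPM of fibroblast genes (4.29 and 6.36 on D11). Its oligodendrocyte genes were at 7.19 and 8.13 CPM on D11. On D45 they were near their level in STMN2+ cells and in all cells (1092 and 833 CPM), so by these genes the gate was not a purer choice. The part of these cells in the members' changes was not tested.

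With these 3 choices the falls were larger and no rise passed. Of the 9 members other than STMN2, 5 fell and 0 rose between D11 and D45 in each of the 3 choices (INA, TUBB3, GAP43, ELAVL4 and ELAVL3, edgeR quasi-likelihood test, Benjamini-Hochberg adjusted). Of all genes, 11.4% rose and 12.3% fell in cells with 3 or more UMIs, 12.7% and 14.3% in cells of no other gate, and 12.5% and 11.1% in the neuron gate. Between D11 and D28, 0 of the 9 rose and 2 fell in each (INA and ELAVL4), where 6.57% and 5.9%, 6.34% and 6.73%, and 7.27% and 6.74% of all genes rose and fell. SNAP25 was higher on D28 at an unadjusted p under 0.05 in cells of no other gate and in the neuron gate (adjusted p = 0.0984 and 0.128). At an unadjusted p under 0.05, SNAP25 was higher on D45 in cells with 3 or more STMN2 UMIs and in cells of no other gate (adjusted p = 0.103 and 0.0847). These choices were not refitted with DESeq2 or without single libraries. In the neuron gate INA was at 1340.2 and 1496 CPM on D11, 226 and 299 on D28, then 162 and 174 on D45, a log2 fold change of -3.33 ± 0.24 (adjusted p = 0.000295). TUBB3 went from 1604 and 1752 to 327 and 435 CPM (-2.39 ± 0.49, adjusted p = 0.0138) and GAP43 from 1605 and 1677 to 445 and 609 (-1.89 ± 0.35, adjusted p = 0.0091). STMN2, which this gate did not use, went from 3380.5 and 3848 to 1110.4 and 1350.3 CPM (-1.81 ± 0.39, adjusted p = 0.0169). ELAVL4 and ELAVL3 changed by -1.49 ± 0.19 and -0.69 ± 0.19. For each of these 6 genes both D45 libraries lay below both D11 libraries. With 2 libraries against 2 the smallest exact permutation p is 0.333, so this order is a description.

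SNAP25 and MAPT had higher levels on D45 than on D11 in the neuron gate but did not pass. SNAP25 was at 181 and 171 CPM on D11, 338 and 264 on D28, then 308 and 308 on D45, with a log2 fold change of 0.56 ± 0.25 (adjusted p = 0.142). MAPT was at 288 and 329.5, 522 and 404, and 374 and 402 CPM, with 0.08 ± 0.27 (adjusted p = 0.864). The D45 libraries of both genes lay above those of D11. SYT1 was at 114 and 117 CPM on D11, 70.8 and 154 on D28, then 118 and 110.1 on D45, and the days overlapped. DCX, an early gene, was at 183 and 157 CPM on D11, 85.8 and 228 on D28, then 179 and 162 on D45. Its change to D45 did not pass (-0.25 ± 0.34, adjusted p = 0.633, edgeR quasi-likelihood test), whereas STMN2 and GAP43 fell. Whether a gene's change differs between whole organoids and the neuron gate was not tested.

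**Figure D2:**
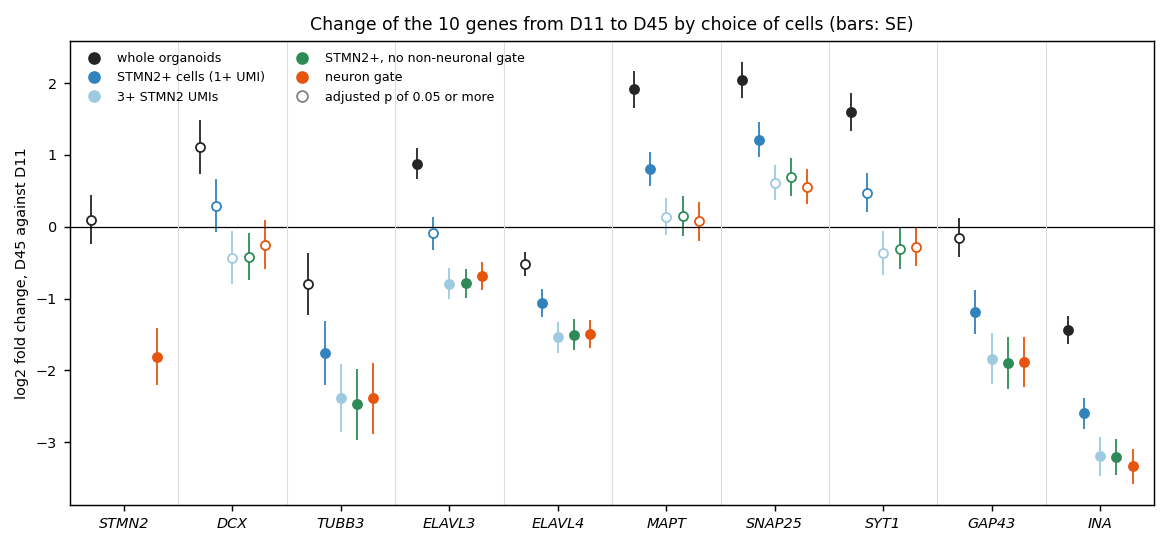
Log2 fold change (vertical axis) of D45 against D11 for each gene in whole organoids, STMN2+ cells, cells with at least 3 STMN2 UMIs, STMN2+ cells in no gate of another cell type, and the neuron gate. Bars are SE, filled points passed an adjusted p of 0.05 and open points did not, and STMN2 is not shown where it chose the cells. The value went from 2.04 in whole organoids to 0.56 in the neuron gate for SNAP25, and from -1.43 to -3.33 for INA.

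The ratio of late to early genes was higher on each later day in the 3 choices of cells compared. The summed CPM of SNAP25, SYT1 and MAPT over that of STMN2, DCX and GAP43 in whole organoids was 0.126 and 0.1198 on D11, 0.2204 and 0.276 on D28, then 0.465 and 0.402 on D45. In STMN2+ cells, where only DCX and GAP43 counted as early, the ratio was 0.32 and 0.334, 0.64 and 0.6699, and 1.28 and 1.06. In the neuron gate, with all 3 early genes, it was 0.113 and 0.109, 0.214 and 0.277, and 0.462 and 0.387. The days did not overlap in any of the 3. The log2 difference between D45 and D11 was 1.81 ± 0.16 in whole organoids, 1.84 ± 0.20 in STMN2+ cells and 1.93 ± 0.18 in the neuron gate. Here ± is the square root of the summed variances of the 2 days (n = 2 libraries per day). Between D45 and D28 it was 0.81 ± 0.27 in whole organoids and 0.84 ± 0.20 in STMN2+ cells, and smaller, at 0.51 ± 0.12 and 0.40 ± 0.28, with means of log2(CPM + 5) over the genes in place of sums. No test was made on it, since the members were chosen together. The gene by gene values show how the ratio was made up. In whole organoids the late genes rose, and the CPM of the early genes on D45 over D11 had a fold of the means of 1.42 for STMN2, 2.87 for DCX and 1.19 for GAP43, whose TMM-scaled log2 change was -0.15. In the neuron gate the fold was 1.76 for SNAP25, 1.26 for MAPT and 0.984 for SYT1, against 0.34 for STMN2, 0.321 for GAP43 and 1.003 for DCX. In cells with no STMN2 UMI the fold was 5.68 for SNAP25, 13.1 for MAPT and 11.2 for SYT1. There it was 4.19 for DCX and 2.21 for GAP43. A larger rise of late than of early genes was therefore not particular to STMN2+ or neuron-gate cells.

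**Figure D3:**
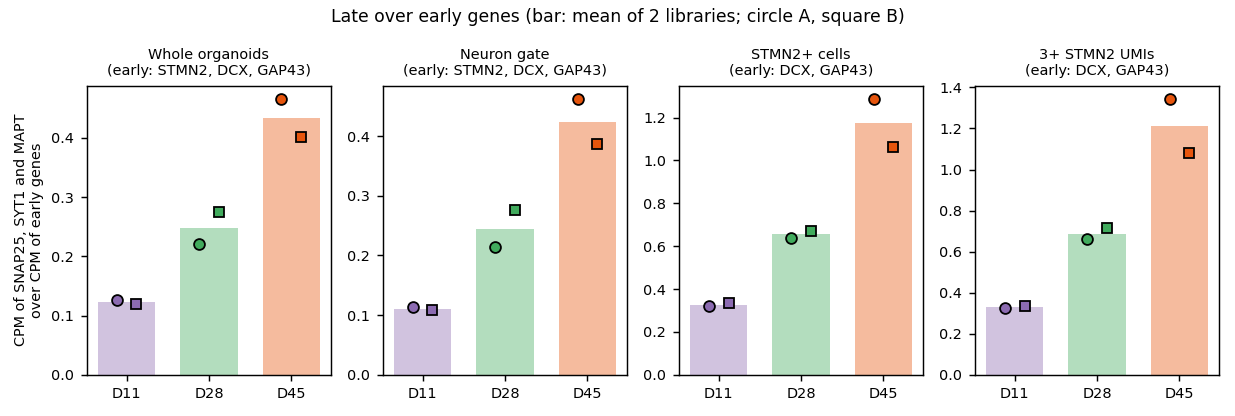
Ratio of the summed CPM of late genes (SNAP25, SYT1, MAPT) to that of early genes (vertical axis), by day, in whole organoids, the neuron gate, STMN2+ cells and cells with at least 3 STMN2 UMIs; bars start at 0 and give the mean of 2 libraries, with circles for A and squares for B. The ratio was higher on each later day in all 4 panels, from 0.126 and 0.1198 to 0.465 and 0.402 in whole organoids.

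Single cells of the neuron gate were compared at 2000 UMIs each, with the gate applied after thinning, which kept 749 and 960 cells on D11, 3907 and 3953 on D28, then 3759 and 3682 on D45. INA was seen in 80.5% and 87.9% of them on D11, 43.3% and 50.8% on D28, then 36.2% and 41.1% on D45. TUBB3 went from 93.6% and 94.8% on D11 to 46.7% and 60.9% on D45, and GAP43 from 90.1% and 94.6% to 60.4% and 69.4%. SNAP25 went from 38.3% and 38.6% to 54.7% and 60.3%, and MAPT from 59.8% and 61.4% to 62.6% and 65.9%. Outside neurons the thinned share of SNAP25 also differed between days and gates, with 2.89% and 2.53% of floor plate cells on D11, 4.16% and 4.47% on D28, then 17.9% and 20.2% on D45 (67 and 124 cells), and 15.4% to 25.3% of fibroblast-gate cells. MAPT went from 1.49% and 2.04% of floor plate cells on D11 to 16.4% and 21% on D45, so no rise of either gene within neurons is read from these shares. Without thinning, cells of all kinds with an INA UMI were 14.6% and 18% on D11 and 25.4% and 25.5% on D45, in shallower cells. Cells with DCX but no SNAP25 UMI were 28.3% and 22.8% of the thinned neuron gate on D11, 11.5% and 24.2% on D28, then 15.7% and 14.2% on D45. Cells with SNAP25 but no DCX were 24.2% and 24% on D11, 43.6% and 25.7% on D28, then 33.7% and 37.8% on D45. The D28 libraries lay on either side of D45 in both classes, and the classes carry the same SNAP25 background. Cells with both were 14.2% and 14.7% on D11, 12.9% and 22.1% on D28, then 21% and 22.5% on D45, with a D28 library below D11 and the other near D45, at a depth where a cell may hold an mRNA that is not seen.

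**Figure D4:**
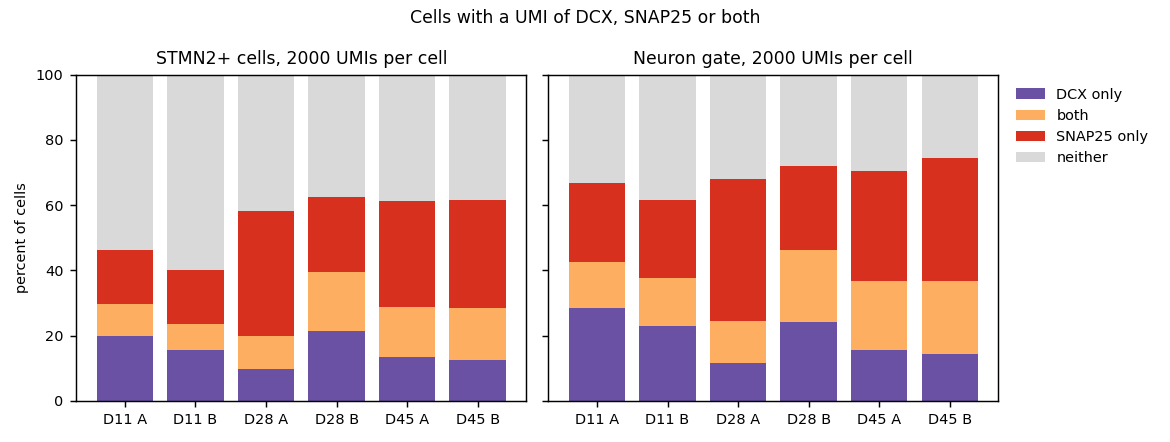
Percent of cells (vertical axis) with a UMI of DCX only, SNAP25 only, both or neither, in each library, for STMN2+ cells and the neuron gate, each cell thinned to 2000 UMIs before the cells were chosen. SNAP25-only cells were 24.2% and 24% of the neuron gate on D11 and 33.7% and 37.8% on D45.

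Between kinds of neurons, 1 of the 10 members passed the test, and the log2 differences lay between -0.33 and 0.36. Cells with UMIs of at least 2 of GAD1, GAD2 and SLC32A1 (inhibitory gate) were compared with cells that had SLC17A6 or SLC17A7 and none of these (excitatory gate) within each of the 4 libraries of D28 and D45, with the library as a block. Of the 10 genes, SYT1 passed with edgeR, higher in the inhibitory gate, where 2.53% of 15935 genes were higher and 9.42% lower. SYT1 was at 93.5 and 202 CPM in the inhibitory gate on D28, then 186 and 198 on D45, and at 78.4 and 154 and 156 and 133 in the excitatory gate. It was higher in the inhibitory gate in 4 of 4 libraries, with a log2 difference of 0.36 ± 0.10 (adjusted p = 0.0313, edgeR quasi-likelihood test, Benjamini-Hochberg adjusted). The call was kept in 4 of 11 alternatives, DESeq2 among them. It was lost without D28 replicate B (adjusted p = 0.093), D45 replicate A (0.0576) or D45 replicate B (0.418), without the filter on low counts (0.0717) or on cells (0.0511), in thinned cells of the 3 libraries other than D28 replicate A (0.594, against 0.0197 in these libraries unthinned), and when cells in a gate of another type were removed (0.525). D28 replicate A gave only 24 inhibitory cells. STMN2 was lower in the inhibitory gate in 4 of 4 libraries (-0.33 ± 0.11, adjusted p = 0.0588) and passed in 6 of 11 alternatives, which were DESeq2 (0.0417), no filter on low counts (0.00208), no filter on cells (0.00905), thinned cells (0.02004, 3 libraries), cells in no gate of another type (0.0073) and without D28 replicate B (0.043). ELAVL3 passed with DESeq2 (0.0441) and library totals (0.0467), and without D28 replicate A ELAVL4 (0.0361) and SNAP25 (0.0134) passed, each higher in the inhibitory gate.

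In the dopaminergic gate INA was at 2143 and 2185 CPM on D11, 232 and 339.6 on D28, then 248 and 321 on D45, so D11 stood far above the later days, which overlapped. SNAP25 was at 217 and 196, 346 and 277, and 429 and 617 CPM there, and the days did not overlap. MAPT was at 424 and 430.3 CPM on D11, 465 and 460 on D28, then 523 and 719 on D45. SYT1 was at 155 and 147, 80.2 and 199, and 148 and 144 CPM. These levels were not tested. They come from 209 to 866 cells per library, which on D11 were deep cells with a median of 18543 and 17907.5 UMIs, against 11911 to 13689 later.

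Outside neurons the levels of most of the genes were lower but not at 0. In the 4 libraries of D28 and D45, the fibroblast gate had 96 to 582 CPM of STMN2, 44.4 to 270.1 of TUBB3, 14 to 22.9 of ELAVL3 and 13.2 to 50.5 of INA, and the neuron gate 1110.4 to 2929, 327 to 1210.3, 108 to 161 and 162 to 299. SNAP25 was at 161 and 225 CPM there on D28, then 136 and 184 on D45, and MAPT at 101 and 30.2, then 43.5 and 81.1, from 71 to 1228 cells per library. DCX was at like levels in some gates of other cells and in neurons, with 189 and 167 CPM in the ciliated gate and 138 and 115 in the astrocyte gate on D45, against 179 and 162 in the neuron gate. ELAVL3 was at 106 to 144 CPM in the oligodendrocyte gate (3 libraries), near its 108 to 161 in the neuron gate. Thinned, 20.5% to 27.5% of oligodendrocyte-gate cells had an ELAVL3 UMI. The share of a gene's UMIs that came from neuron-gate cells on D28 and D45 was 88.1% to 94.5% for INA, 84.2% to 93.5% for MAPT and 81.0% to 89.2% for SNAP25. It was lower for SYT1 (66.7% to 76.9%), and ran from 76.7% to 84.6% for GAP43 and 75.7% to 84.4% for DCX. On D11 it was 44.0% and 47.2% for ELAVL4 and 51.4% and 60.5% for DCX. Over 6 libraries the floor plate gate had 9.04 to 106 CPM of SYT1 and 107 to 572 of GAP43. The neuron gate had 70.8 to 154 and 445 to 1677. Thinned, SYT1 was seen in up to 29.9% of floor plate cells of a library, against up to 30.1% of neuron-gate cells.

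**Figure D5:**
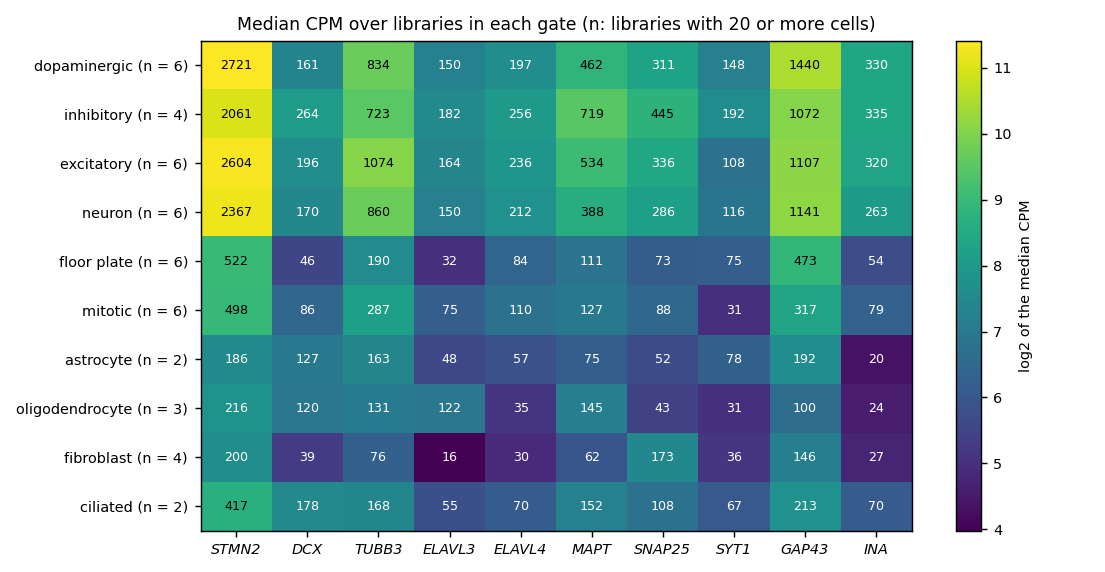
Median CPM of each gene (columns) over the libraries with 20 or more cells in each gate (rows, with the number of libraries), coloured by its log2. The 4 rows of neuron gates are brighter than those of other cell types for most genes, with 2367 CPM of STMN2 in the neuron gate (6 libraries) against 199.8 in the fibroblast gate (4 libraries of D28 and D45, in which the neuron gate had 1110.4 to 2929).

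Other genes of the same machinery, from lists set by name, moved in both directions. The lists held 32 other cytoskeleton and growth cone genes (28 tested), 40 vesicle release genes (38 tested) and 19 neuronal RNA-binding genes (19 tested), and none of the 10 members. In whole organoids between D11 and D45, 14 cytoskeleton genes rose and 3 fell, 26 vesicle genes rose and 1 fell, and 10 RNA-binding genes rose and 3 fell, where 17.3% and 17.4% of all genes did. The median log2 fold changes were 0.65, 1.06 and 0.75, beside -0.01 over all genes tested. In STMN2+ cells the counts were 5 and 4, 15 and 3, and 6 and 3, with medians of 0.08, 0.63 and -0.04 beside 0.05 over all genes, of which 14.2% rose and 13.0% fell. The 5 and 4 of 28 cytoskeleton genes are near those shares. In the neuron gate, leaving out the 1, 1 and 2 listed genes that defined the gate, they were 2 and 6 of 27, 8 and 4 of 37, and 3 and 5 of 17, with medians of -0.24, 0.17 and -0.46 beside 0.05 over all genes, of which 12.5% rose and 11.1% fell. Most vesicle genes that passed were higher on D45 in each choice of cells, and most cytoskeleton genes that passed were lower in the neuron gate.

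Among cytoskeleton genes in STMN2+ cells, the neurofilament light chain gene NEFL fell further than INA. It was at 1503 and 1331 CPM on D11, 138 and 177 on D28, then 79 and 95.6 on D45, with no overlap (log2 fold change -4.31 ± 0.26, adjusted p = 0.000204, edgeR quasi-likelihood test, Benjamini-Hochberg adjusted) and with -5.16 in the neuron gate. DPYSL5 and DPYSL4 (collapsin response mediator proteins) changed by -0.96 and -0.71. The genes that rose most were TUBA4A (an alpha-tubulin), from 0.22 and 0.616 to 6.95 and 5.07 CPM, and DCLK1 (doublecortin-like kinase), from 276 and 225 to 736 and 743 CPM (1.27 ± 0.21, adjusted p = 0.00615). The kinesin genes KIF1A and KIF21B rose by 0.81 each, and had 0.42 and 0.39 in the neuron gate, where they did not pass.

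Among vesicle genes, SYT13, an atypical synaptotagmin, was at 8.67 and 8.16 CPM in STMN2+ cells on D11, 63 and 84.1 on D28, then 38.9 and 49.6 on D45. It rose by 2.10 ± 0.20 on the log2 scale to D45 (adjusted p = 0.000716, edgeR quasi-likelihood test, Benjamini-Hochberg adjusted), with D28 above D45. SV2B and SV2C, synaptic vesicle glycoproteins, rose by 1.90 and 1.85, and SNPH, which anchors mitochondria in axons, by 1.88. SV2B stayed below 3 CPM in all libraries, and SV2C did not pass in cells with at least 3 STMN2 UMIs (adjusted p = 0.078) or in STMN2+ cells in no gate of another type (0.0735). The genes that fell were DNAJC5, a vesicle chaperone (-1.29), CPLX1, which clamps SNARE complexes (-1.06), and DOC2B, a calcium sensor (-0.90). The last 2 were at low levels. CPLX1 was at 8.47 and 8.33 CPM on D11, then 5.07 and 4.81 on D45, and DOC2B at 7.35 and 5.34, then 3.71 and 4.60. In whole organoids neither passed, with log2 changes of 0.000533 and -0.26 (adjusted p = 0.999 and 0.415, edgeR quasi-likelihood test).

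Among RNA-binding genes, ELAVL2, the third neuronal ELAVL gene, was at 361 and 282 CPM in STMN2+ cells on D11, 122 and 129.6 on D28, then 76.7 and 68.7 on D45. It changed by -2.44 ± 0.21 (adjusted p = 0.000534, edgeR quasi-likelihood test, Benjamini-Hochberg adjusted), with -3.15 in the neuron gate, further than ELAVL4 with -1.06 and -1.49. MSI1 and PTBP1, known from progenitors, changed by -1.57 and -1.03, the latter with -0.52 and no call in the neuron gate. KHDRBS2, a splicing regulator, went from 20.2 and 17.3 CPM on D11 to 60.3 and 145 on D28, then 255.5 and 205 on D45 (3.32 ± 0.34, adjusted p = 0.00096). The splicing regulators CELF4, CELF6 and CELF5 rose by 2.07, 1.59 and 1.29. Of the genes named from the 3 lists, NEFL, SYT13, SNPH, KHDRBS2, CELF4, CELF6, ELAVL2 and MSI1 kept their calls in 16 of 16 alternatives, 1 of which, the neuron gate, CELF4 helped to define. The other named genes lost theirs in at least 1 alternative.

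Over 45 sums of a library and gate with at least 20 cells, the members followed each other to different degrees. STMN2 had a Pearson correlation of 0.969 with GAP43 and 0.952 with TUBB3 on log2(CPM + 5), while DCX had 0.454 with TUBB3, 0.46 with GAP43 and 0.872 with ELAVL3. MAPT and SNAP25 had 0.854. The other genes most like the mean of the members, among 7366 genes, were SEZ6L2 (0.979), CELF3 (0.967), KIF5A (0.959), MAPK8IP2 (0.959) and CRMP1 (0.955). The sums share libraries and some share cells, so these values are a description.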

How the data were processed

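Single-cell RNA-seq (10x GEM-X 3′ v4) was made from 6 libraries. The authors aligned reads to Sscrofa11.1 with Cell Ranger (8.0.1 in the file headers) and deposited raw UMI counts per gene and cell, without normalization. Their Seurat 4.3.0 clusters were not used.

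Cells with 200 to 7000 genes and at most 10% of UMIs from 13 protein-coding mitochondrial genes were kept, 103519 of 104820. No doublet caller was run, and an alternative left out cells in gates of other types. Counts were summed per library and set of cells (at least 20 cells), and all 6 libraries were fitted with day as the only factor in edgeR 4.0.16 (quasi-likelihood test, TMM, R 4.3.3), with Benjamini-Hochberg adjustment over all genes tested and a threshold of 0.05. Low-count genes were removed with filterByExpr. Scripts were tested on simulated data. Alternatives were DESeq2 1.42.0, size factors, library totals, no filters, cells thinned to 2000 UMIs, other choices of cells, a replicate block and leaving out each library. Levels are UMI counts at the 3′ end, not scaled by length. SDs rest on 2 libraries per day.

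The members and lists were chosen with earlier results of these data known. Named genes are the 10 members, the 4 largest rises and falls past the threshold per list (D45 against D11, STMN2+ cells) and the 5 genes most like the members. A gene of the neuron gate and a gene that the rule would name are not reported here.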

Additional observations from a re-analysis of the deposited data

How the results depend on the processing

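The replicate letters did not pair the libraries: deviations from the day means correlated by -0.601, 0.261 and -0.413 between days over all cells and -0.584, 0.294 and -0.415 in STMN2+ cells. With the replicate letter as a block, the genes called between D11 and D28 were 3313 in place of 5132 in whole organoids and 1984 in place of 3428 in STMN2+ cells, and between D28 and D45 635 in place of 2100 and 336 in place of 1306. Thinned cells gave 1301, 2025 and 668 for whole organoids D28 to D45, STMN2+ cells D11 to D28 and D28 to D45, and 354 between the inhibitory and excitatory gates, in 3 libraries with D28 replicate A too small, in place of 1904 in 4 libraries and 2124 in those 3 unthinned. DESeq2 called 4349 and 3400 genes between D28 and D45 in whole organoids and STMN2+ cells. For STMN2+ cells in that comparison, 3 or more UMIs gave 572 and no gate of another type 575, and between the neuron gates the latter gave 796.

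Leaving out each library in turn gave 1106 to 10536 calls (D11 to D28), 0 to 10015 (D28 to D45) and 2797 to 12297 (D11 to D45, 7695 with all libraries) in whole organoids, and 610 to 8536, 0 to 8879 and 1544 to 10251 (5832) in STMN2+ cells, and 974 to 2124 between the gates. The 0 calls came without D45 replicate A by edgeR, where 3753 and 3096 genes had an unadjusted p under 0.05; DESeq2 was not run without it. A day left with 1 library was assumed to vary like the others. The highest count of each comparison came without a D28 library. Between D28 and D45 in whole organoids, the log2 changes without single libraries ran from -1.21 to -0.22 for STMN2, -1.61 to -0.14 for TUBB3 and -1.37 to -0.69 for GAP43. Those of DCX, SYT1 and SNAP25 changed sign and are given below. In STMN2+ cells, the D28 calls of MAPT and SNAP25 were lost without any D11 or D45 library (0.0687 to 0.271) and with the block (0.0911 and 0.0524). The block also ended the calls of GAP43 (D28, whole organoids, 0.111) and of MAPT and GAP43 (D45, STMN2+ cells, 0.0928 and 0.0683).

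The log2 change of late over early genes from D11 to D45 was 1.39 in whole organoids and 1.25 in STMN2+ cells with means of logs, and from D11 to D28 in STMN2+ cells 0.85 so, 1.07 in thinned cells and 1.14 in the neuron gate. Without single libraries it ranged from 0.84 to 1.17 and 1.71 to 1.92 (D28 and D45 against D11, whole organoids) and from 0.97 to 1.04 and 1.70 to 1.97 (STMN2+ cells).

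Members changed sign as follows in whole organoids. ELAVL4 to D28 was 0.18 with totals and 0.34 thinned, GAP43 to D45 0.25 and 0.23. From D28 to D45, ELAVL3 was -0.065 thinned, MAPT 0.091 with totals, and SYT1 0.0087 with DESeq2 and with size factors, 0.10 with totals, 0.041 thinned and 0.025 with the block. In STMN2+ cells, DCX to D28 was -0.0027 thinned, -0.46 with 3 or more UMIs, -0.30 with no other gate and -0.33 in the neuron gate, and to D45 -0.12, -0.43, -0.42 and -0.25. SYT1 with the last 3 choices was -0.43, -0.43 and -0.25 to D28 and -0.36, -0.30 and -0.28 to D45. With totals, ELAVL3 was 0.069 to D28 and 0.21 to D45, and GAP43 to D28 0.05. From D28 to D45, DCX was -0.12 thinned and with no other gate, ELAVL3 -0.28 thinned, -0.12 with 3 or more UMIs, -0.32 with no other gate and -0.15 in the neuron gate, SNAP25 -0.056 and -0.082 with the last 2, and SYT1 -0.0019 with DESeq2 and size factors and -0.030 in the neuron gate. Between the gates, TUBB3 was 0.024 with DESeq2 and size factors and 0.038 with totals, and ELAVL3 -0.089 thinned. The cause was not tested.

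Without single libraries the sign also changed in these ranges. In whole organoids they were TUBB3 -0.60 to 0.81 and ELAVL4 -0.15 to 0.054 (D28 against D11), DCX -0.10 to 1.07, ELAVL3 -0.012 to 0.40, MAPT -0.36 to 0.31, SNAP25 -0.14 to 0.59 and SYT1 -0.32 to 0.44 (D45 against D28), and STMN2 -0.022 to 0.35 and GAP43 -0.34 to 0.0023 (D45 against D11). In STMN2+ cells they were DCX -0.70 to 0.55, ELAVL3 -0.40 to 0.051, SYT1 -0.049 to 0.82 and GAP43 -0.47 to 0.15 (D28 against D11), DCX -0.26 to 0.99, ELAVL3 -0.14 to 0.31, MAPT -0.36 to 0.16, SNAP25 -0.10 to 0.45 and SYT1 -0.35 to 0.52 (D45 against D28), and ELAVL3 -0.25 to 0.088 (D45 against D11). TUBB3 between the gates was -0.13 to 0.058.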
